A study of Homo sapiens with 18 samples.

Results

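The transcripts described here are those of 10 genes of the anaphase-promoting complex (APC/C), a ubiquitin ligase, and of the proteins that drive, restrain and act below it. They were chosen by gene symbol from the 58395 genes of the deposited tables: the activators CDC20 and FZR1, the ubiquitin-conjugating enzymes UBE2C and UBE2S, the inhibitor FBXO5, securin (PTTG1), separase (ESPL1), and the core subunits CDC27, CDC16 and ANAPC1. All 10 passed the filter on low counts in every comparison. The working idea behind the choice was that the regulators follow the cell cycle while the core subunits stay constant, and the constancy of the core was checked on all 14 core subunit genes.

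RNA came from HeyA8, a human ovarian cancer line, and PC3, a human prostate cancer line, both labelled wild type. Each was transfected with the lipid reagent RNAiMax and 10 nM of a short RNA named sNT8, sG5C or sCAG, and total RNA was sequenced after 48 h. This gave 6 groups of 3 libraries, lettered A to C (sG5C libraries carry Mxy in their titles, and the treatment field was used): HeyA8 with sNT8, HeyA8 with sG5C, HeyA8 with sCAG, and the same in PC3. The series concerns short RNAs linked to DISE, a kind of cell death. In the deposited tables sNT8 is the reference, so all groups including the reference carry transfected RNA and none is untreated.

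The APC/C attaches ubiquitin to mitotic proteins and so marks them for the proteasome. CDC20 activates it when chromosomes separate, and FZR1 (CDH1) activates it from late mitosis through G1. The main targets at anaphase are cyclin B and securin, whose loss frees separase to cut the cohesin that holds sister chromatids together. In cycling cells the transcripts of CDC20, UBE2C, PTTG1 and several APC/C substrates are known to peak in G2 and mitosis.

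Each library held between 31232377 and 41384838 reads in genes. Pairs of libraries within a group gave chi-square values of 3.53 to 8.13 for each degree of freedom, above the level that counting alone gives. The labels do not say that replicates were separate cultures, so p-values measure the spread between these libraries, which may be technical. In HeyA8 with sNT8 the Müllerian transcription factor gene PAX8 stood at 344 to 358 CPM (reads scaled to the library total), while MUC16 and the epithelial cadherin gene CDH1 were at 0 in all 3 libraries. In PC3 with sNT8 the prostate homeobox gene HOXB13 stood at 241 to 259 CPM, and KLK3 and FOLH1, other prostate genes, were at 0 in all 3. The 6 leukocyte markers summed to at most 1.23 CPM in any library. The 4 endothelial markers summed to 73.0 to 77.8 CPM in HeyA8 with sNT8, mostly CDH5, and to 17.3 to 18.6 CPM with sCAG. In PC3 they summed to 97.5 to 114 CPM with sNT8 and 117 to 144 CPM with sCAG, mostly KDR and PECAM1. The part of these markers in the results below was not tested. These are bulk libraries, so fewer cells in a phase of the cycle and less RNA per cell cannot be told apart.

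The promoters of 4 of the genes are shown first because they hold, or lack near the RefSeq start, the elements by which late cell-cycle genes are commonly recognised. The CHR element (TTTGAA) is bound by the MuvB complexes that repress G2 and mitotic genes in resting cells, and the CCAAT box is bound by NF-Y. RefSeq (GRCh38.p14) entries covering 250 bases before to 50 bases after the gene start were matched by symbol for 9 of the 10 genes, all but UBE2C. Each is printed 5′ to 3′ on the strand of the gene, with matches to TTTGAA and CCAAT on either strand in capitals, so TTCAAA and ATTGG are matches on the opposite strand.
CDC20, chr1:43358731-43359030, plus strand: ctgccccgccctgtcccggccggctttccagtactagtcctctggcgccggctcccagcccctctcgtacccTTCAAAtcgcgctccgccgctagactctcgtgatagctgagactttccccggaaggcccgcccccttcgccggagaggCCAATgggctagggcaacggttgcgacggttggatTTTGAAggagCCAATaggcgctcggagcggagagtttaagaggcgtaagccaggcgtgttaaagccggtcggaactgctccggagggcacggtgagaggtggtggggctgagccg
ESPL1, chr12:53268049-53268348, plus strand: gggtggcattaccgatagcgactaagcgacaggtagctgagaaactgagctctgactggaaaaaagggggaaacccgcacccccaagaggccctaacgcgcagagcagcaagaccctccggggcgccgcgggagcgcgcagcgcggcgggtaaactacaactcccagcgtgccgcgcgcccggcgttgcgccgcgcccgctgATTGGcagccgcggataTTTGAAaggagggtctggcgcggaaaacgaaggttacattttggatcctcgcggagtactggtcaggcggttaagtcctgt
PTTG1, chr5:160421605-160421904, plus strand: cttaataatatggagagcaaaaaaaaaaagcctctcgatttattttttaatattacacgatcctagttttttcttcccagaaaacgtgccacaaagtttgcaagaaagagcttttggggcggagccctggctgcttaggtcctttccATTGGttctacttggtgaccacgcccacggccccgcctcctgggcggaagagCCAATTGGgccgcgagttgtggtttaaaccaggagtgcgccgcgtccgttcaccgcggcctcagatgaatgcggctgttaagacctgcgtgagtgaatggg
CDC27, chr17:47189246-47189545, minus strand: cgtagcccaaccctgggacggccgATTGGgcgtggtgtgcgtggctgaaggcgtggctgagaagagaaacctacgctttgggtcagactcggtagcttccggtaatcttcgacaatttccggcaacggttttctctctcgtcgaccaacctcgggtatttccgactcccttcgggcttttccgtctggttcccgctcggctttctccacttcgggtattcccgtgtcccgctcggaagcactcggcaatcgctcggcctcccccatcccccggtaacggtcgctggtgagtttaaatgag

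The CDC20 promoter holds TTTGAA at base -65 counted from the start, between CCAAT boxes at -100 and -55, and a further TTTGAA on the opposite strand at -178. That of ESPL1 holds TTTGAA at -31 with a CCAAT box at -48 on the opposite strand. PTTG1 has 3 CCAAT matches, at -103, -51 and -48, of which the last 2 overlap on opposite strands, and no TTTGAA in this window. The only match in CDC27, a core subunit gene, is a CCAAT box at -226, on the opposite strand. Its RefSeq start lies 127 bases downstream of the start in the deposited tables, and that of ANAPC1 497 bases downstream, whereas those of the other 7 genes differ by at most 38 bases. Counted from the deposited start, the CCAAT box of CDC27 is 127 bases closer. Its distance from the start therefore does not set CDC27 apart from CDC20 and PTTG1.

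Of all 35116 promoters in the table, 15.2% hold TTTGAA, 34.6% hold CCAAT, 10.8% hold at least 2 CCAAT boxes and 5.90% hold both elements. Among the 9 genes, TTTGAA was found for CDC20, ESPL1, FZR1 at -226 and ANAPC1 at 38 bases past the start. A list of 25 APC/C substrates, which includes CDC20, UBE2C and PTTG1, had 21 promoters in the table, and 7 of these held TTTGAA, 16 CCAAT and 11 at least 2 CCAAT boxes. Of the 14 core subunit promoters, 2 held TTTGAA, 5 CCAAT and 1 at least 2 CCAAT boxes. The E2F sequences TTTGGCGC and TTTCCCGC occur in 2.27% of all promoters and among the 9 genes only once, as TTTCCCGC at -74 of CDC16. FBXO5 held no match to any of these sequences. A match describes the letters of the window and does not show that a factor binds there. Whether matches go with the responses below was not tested.

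**Figure D1:**
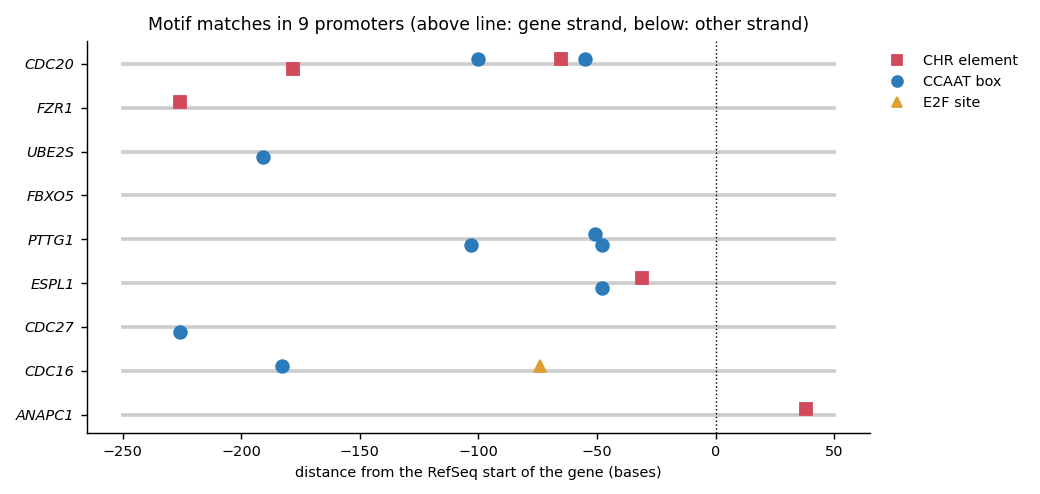
Matches to the CHR element, the CCAAT box and the E2F sequences by distance in bases from the RefSeq start of 9 genes (symbols above a line lie on the gene's strand, below it on the opposite strand). CDC20, PTTG1 and ESPL1 have their matches within 103 bases of the RefSeq start, apart from 1 match in CDC20, and the CCAAT boxes of UBE2S, CDC27 and CDC16 lie farther upstream. For CDC27 this holds only by the RefSeq start, since the start in the deposited tables lies 127 bases nearer to its box.

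In the reference cells, CDC20 was the most abundant of the 10 transcripts in HeyA8 and UBE2C in PC3 (RPKM, reads of the gene scaled by its merged exon length and the library total; mean ± SD, n = 3). HeyA8 with sNT8 held 134 ± 4.3 RPKM of CDC20, 83.8 ± 2.36 of UBE2C, 49.4 ± 0.965 of PTTG1 and 43.6 ± 0.891 of UBE2S. Of the core subunits it held 35.6 ± 1.15 RPKM of CDC27, 24.1 ± 0.697 of CDC16 and 8.9 ± 0.244 of ANAPC1. FZR1 followed CDC16 with 15.5 ± 0.597, and ESPL1 with 10.8 ± 0.692 and FBXO5 with 10.5 ± 0.377 came next, the only neighbours in this order whose 3 libraries overlapped.

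PC3 with sNT8 held 82.8 ± 3.6 RPKM of UBE2C, 74.2 ± 3.99 of UBE2S and 60.1 ± 3.15 of CDC20, followed by 37.7 ± 1.19 of CDC27, 31.5 ± 0.569 of PTTG1, 12.7 ± 0.452 of CDC16 and 11.4 ± 0.259 of ANAPC1. The lowest were ESPL1 with 9.95 ± 0.829, FZR1 with 8.1 ± 0.633 and FBXO5 with 7.69 ± 0.236, where FZR1 and FBXO5 overlapped. Per length, UBE2C was 1.92 times UBE2S in HeyA8 and 1.12 times in PC3. UBE2S is uncertain in level, because its pseudogenes took 19.2 to 21.3% of the reads of the gene and its copies in all 18 libraries.

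**Figure D2:**
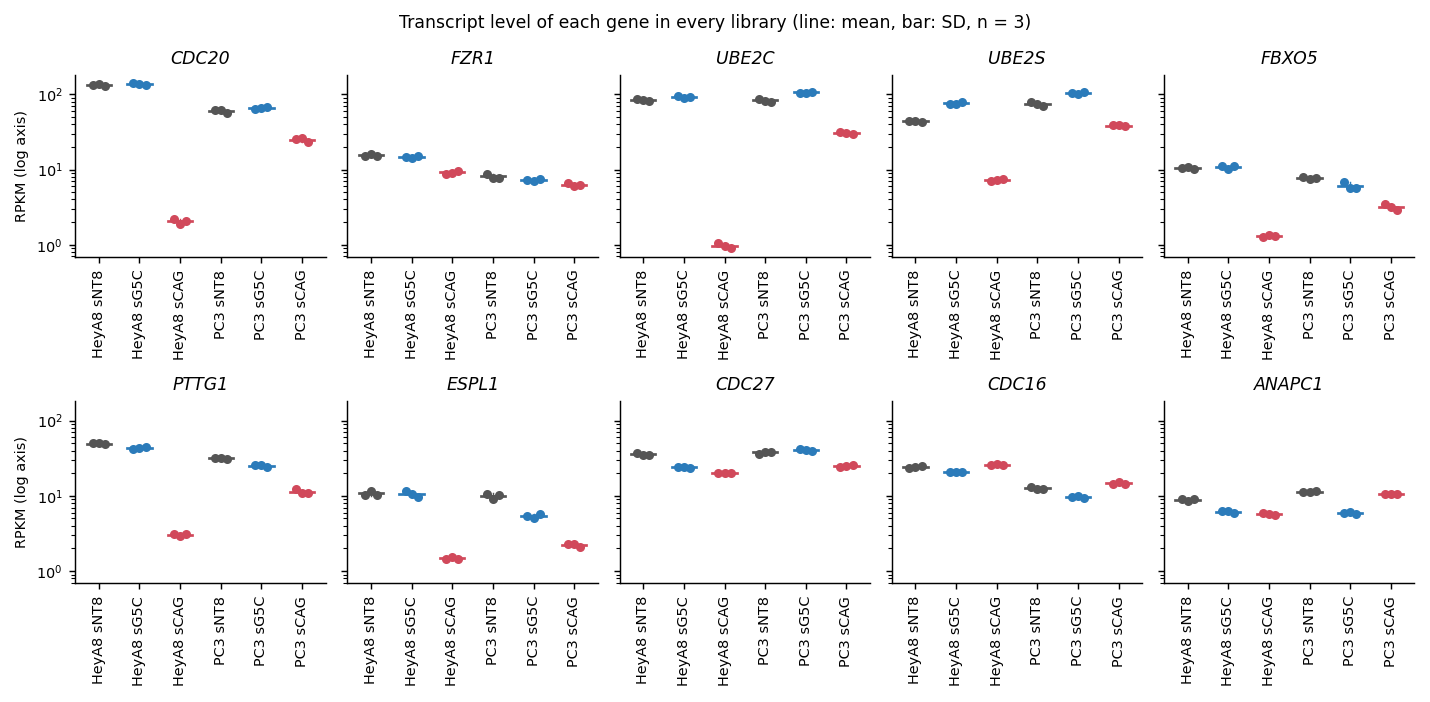
RPKM of the 10 genes (log axis) in each library of the 6 groups, with points for libraries, a line for the mean and a bar for the SD (n = 3). With sCAG in HeyA8, CDC20, UBE2C, UBE2S, FBXO5, PTTG1 and ESPL1 lie below every other group. UBE2C has a mean of 0.972 there against 83.8 with sNT8, and ESPL1 has 1.48 against 2.225 in PC3 with sCAG.

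Set against PC3, the HeyA8 reference cells had 8 of the 10 transcripts higher and 1 lower, where 32.7% of the 27105 genes tested were higher and 38.5% lower (edgeR, adjusted p under 0.05). CDC20 was 2.65-fold higher (1.41 ± 0.05 on the log2 scale, SE; edgeR adjusted p = 4.28e-27), FZR1 2.28-fold, CDC16 2.26-fold, PTTG1 1.87-fold and FBXO5 1.63-fold higher. UBE2S was 1.43-fold lower in HeyA8, and ANAPC1 did not pass the test (log2 fold change -0.10 ± 0.05, SE; edgeR adjusted p = 0.0742). When libraries were scaled by their totals instead, the all-gene median shifted by -0.25 and UBE2C, ESPL1 and CDC27 were no longer called higher, CDC27 then having a log2 value of -0.082. Without HeyA8 sNT8 library A, ANAPC1 was called lower, at -0.12. With library totals ANAPC1 was lower as well, at -0.35, and the share of higher calls among all called genes went from 45.9% to 35.4%.

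With sCAG in HeyA8, 9 of the 10 transcripts fell and CDC16 rose. Of all 21897 genes tested, 30.2% were lower and 29.3% higher (limma on log2 of the normalised count plus 1, adjusted p under 0.05). The median log2 fold change of the 10 was -2.60, beside 0.01 over all genes. Library totals as the scale shifted the all-gene median by -0.12 and the share of higher calls among all called genes from 49.3% to 39.1%, and the calls of the 10 kept their direction. In all 10 genes the 3 sCAG libraries lay on the same side of the 3 sNT8 libraries without overlap. The share of all genes whose groups lay apart was not counted, here or in the comparisons below. Statements on overlap therefore describe single genes and do not set the 10 apart from other genes. Folds are ratios of means on the log scale, and normalised counts are reads divided by the size factor of the library within its table.

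Of the activators, CDC20 had 9714, 9787 and 9044 normalised counts in the sNT8 libraries A, B and C and 171, 147 and 161 in the sCAG libraries. This was a 59.2-fold fall (-5.89 ± 0.06 on the log2 scale, SE; limma adjusted p = 1.2e-29). FZR1, the activator of late mitosis and G1, had 3137, 3258 and 3016 with sNT8 and 1923, 2002 and 2128 with sCAG. Its libraries did not overlap either, but the fall was 1.56-fold (-0.64 ± 0.05 on the log2 scale, SE; limma adjusted p = 4.36e-11). Reads of FZR1 may include some of MFSD12 on the opposite strand, which shares 70 exon bases with it, since the sources used here name no strand setting.

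The enzyme UBE2C, which starts ubiquitin chains on APC/C substrates, fell as well. It had 3938, 3795 and 3567 normalised counts in the sNT8 libraries and 51.5, 46.9 and 43.9 in the sCAG libraries, a 77.9-fold fall (-6.28 ± 0.09 on the log2 scale, SE; limma adjusted p = 2.12e-27). The 3 sCAG libraries thus held 50, 44 and 40 reads of UBE2C. Its pseudogene UBE2CP1 had 39, 47 and 30 reads there and 37, 54 and 50 with sNT8. With the counts of the 4 UBE2C pseudogenes added to the gene, an alternative chosen after seeing the data, the log2 fold change was -5.39. UBE2C had the largest fall of the 10 as deposited, and CDC20 had it with copies added (-5.91). UBE2S, which lengthens the chains, had 4376, 4294 and 4061 normalised counts with sNT8 and 750.2, 763 and 787 with sCAG. It fell 5.53-fold (-2.47 ± 0.05 on the log2 scale, SE; limma adjusted p = 2.13e-23).

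The inhibitor gene FBXO5 (EMI1), whose product blocks the APC/C in S and G2 phase, had 1423, 1455 and 1340.1 normalised counts with sNT8 and 186, 199 and 192 with sCAG. The fall was 7.28-fold (-2.86 ± 0.08 on the log2 scale, SE; limma adjusted p = 4.06e-21). Securin, PTTG1, went from 3602, 3501 and 3326 to 240.1, 222 and 238, a 14.8-fold fall (-3.89 ± 0.07 on the log2 scale, SE; limma adjusted p = 1.33e-25). Separase, ESPL1, the protease that securin holds inactive, went from 3311, 3569 and 3142 to 489.5, 521 and 492. It fell 6.65-fold (-2.73 ± 0.06 on the log2 scale, SE; limma adjusted p = 4.33e-23).

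The core subunits moved little by comparison. CDC27, a subunit that binds the activators, had 9034, 8228 and 8216 normalised counts with sNT8 and 5183, 5158 and 5294 with sCAG (1.63-fold lower; -0.70 ± 0.05 on the log2 scale, SE; limma adjusted p = 2.83e-13). ANAPC1, the scaffold subunit, had 4546, 4188 and 4316 with sNT8 and 3143, 3072 and 2991 with sCAG (1.42-fold lower; limma adjusted p = 6.53e-10). CDC16, a neighbour of CDC27 in the complex, had 3313, 3337 and 3344 with sNT8 and 3903, 3924 and 3867 with sCAG (1.17-fold higher; limma adjusted p = 9.3e-05). Over all 14 core subunit genes, 8 fell, 4 rose and 2 did not pass, with log2 fold changes from -0.70 to 0.58 and a median of -0.30. Most core subunit transcripts were therefore not constant by this test, but neither were most genes. It called 59.5% of all 21897 genes either way, and 11121 of 15027 genes with a filter at a value of 50 in 3 libraries. ANAPC16 rose 1.39-fold (limma adjusted p = 6.71e-08), and ANAPC2 did not pass (log2 fold change 0.05; limma adjusted p = 0.53).

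Around the complex, 25 of the 25 APC/C substrate genes fell, with log2 fold changes from -7.54 to -0.73 and a median of -4.91. ANLN, an actin-binding protein of the cleavage furrow, fell 66.8-fold and the checkpoint kinase gene BUB1 101-fold. Of 6 genes for inhibitors of the complex and their regulators, 5 fell. MAD2L1 fell 31.4-fold and BUB1B 32.6-fold, both of the mitotic checkpoint complex that holds CDC20, while MAD2L1BP did not pass (log2 fold change 0.05; limma adjusted p = 0.627). Of 12 genes for cohesin and its partners, PTTG1 and ESPL1 among them, 10 fell and 1 rose. RAD21, the cohesin subunit that separase cuts, fell 3.23-fold, and WAPL, which releases cohesin, did not pass (log2 fold change -0.09; limma adjusted p = 0.0934). For comparison, of 9 genes of the SCF ligase, another cell-cycle ubiquitin ligase, 5 fell and 3 rose, their median being -0.32. Cyclin F (CCNF) fell 10.8-fold and SKP2, which is also in the substrate list, 1.65-fold. SKP1 rose 1.35-fold, and FBXW11 did not pass (log2 fold change 0.08; limma adjusted p = 0.138). Each list is described by its counts and median only.

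With sCAG in PC3, 8 of the 10 transcripts fell, CDC16 rose and ANAPC1 did not pass the test. Of the 22959 genes tested in PC3, 23.2% were lower and 27.6% higher. The median log2 fold change of the 10 was -0.94, beside a value that rounds to 0 over all genes. With library totals as the scale the all-gene median shifted by -0.17 and the share of higher calls from 54.3% to 34.2%. Separase had the largest fall here and CDC20 and UBE2C fell 2.15-fold and 2.39-fold.

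CDC20 had 4119, 4210.2 and 3755 normalised counts with sNT8 and 1864, 1974 and 1772 with sCAG (-1.11 ± 0.05 on the log2 scale, SE; limma adjusted p = 2.76e-14). FZR1 had 1676, 1512 and 1450.2 with sNT8 and 1386, 1326 and 1343 with sCAG, groups that did not overlap but came close. It was 1.14-fold lower (limma adjusted p = 0.0115), and the call was lost without sNT8 library A, where the log2 fold change was -0.13, and without sCAG library B, where it was -0.18. UBE2C had 3655, 3497 and 3357 with sNT8 and 1461, 1477 and 1450.1 with sCAG (-1.26 ± 0.05 on the log2 scale, SE; limma adjusted p = 6.72e-16). UBE2S had 7109, 6934 and 6369 with sNT8 and 3927, 4072 and 3907 with sCAG, a 1.71-fold fall (limma adjusted p = 1.47e-12). For both enzymes every sCAG library lay below every sNT8 library.

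FBXO5 fell from 988, 948 and 974 to 487, 453 and 418 normalised counts (2.14-fold; limma adjusted p = 1.57e-11). PTTG1 fell from 2105, 2129 and 2029.7 to 897, 821 and 811 (2.48-fold; limma adjusted p = 6.53e-15). ESPL1 fell from 3052, 2665 and 3010.2 to 735, 758 and 706 (3.96-fold; -1.99 ± 0.06 on the log2 scale, SE; limma adjusted p = 6.73e-18). None of these 3 genes had overlapping groups.

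Of the core subunits, CDC27 fell from 8113, 8733 and 8543 to 6080.3, 6281 and 6511 normalised counts (1.35-fold; limma adjusted p = 1.66e-08). CDC16 rose from 1717, 1644 and 1612 to 2049.9, 2271 and 2118 (1.29-fold; limma adjusted p = 4.26e-06). ANAPC1 had 5109.8, 5249 and 5322 with sNT8 and 5348, 5469.9 and 5598 with sCAG, with every sCAG library above every sNT8 library, but it did not pass (log2 fold change 0.07, 95% interval -0.02 to 0.16; limma adjusted p = 0.218). Scaling by library totals gave ANAPC1 a log2 fold change of -0.11, called lower. Of the 14 core subunit genes 5 fell and 3 rose, with values from -0.43 to 0.83 and a median of -0.01. ANAPC16 rose 1.39-fold, and ANAPC5 did not pass (log2 fold change 0.02; limma adjusted p = 0.708). With library totals 9 of the 14 were lower.

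All 25 substrate genes fell again, with values from -2.78 to -0.38 and a median of -1.42. ANLN fell 5.96-fold, the phosphatase gene CDC25A 6.88-fold and RRM2, a ribonucleotide reductase subunit, 3.33-fold. Of the 6 inhibitor and checkpoint genes 5 fell, MAD2L1 3.24-fold and BUB1B 2.78-fold, and MAD2L1BP rose 1.3-fold, a rise no longer called with library totals. Of the 12 cohesin genes 10 fell and 1 rose, and CDCA5 (sororin), a guard of cohesin, fell 3.92-fold, while PDS5A did not pass (log2 fold change -0.01; limma adjusted p = 0.869). Of the 9 SCF genes 4 fell and 3 rose. CCNF fell 3.79-fold, BTRC fell 1.59-fold, SKP2 fell 1.35-fold and SKP1 did not pass (log2 fold change -0.09; limma adjusted p = 0.0995).

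**Figure D3:**
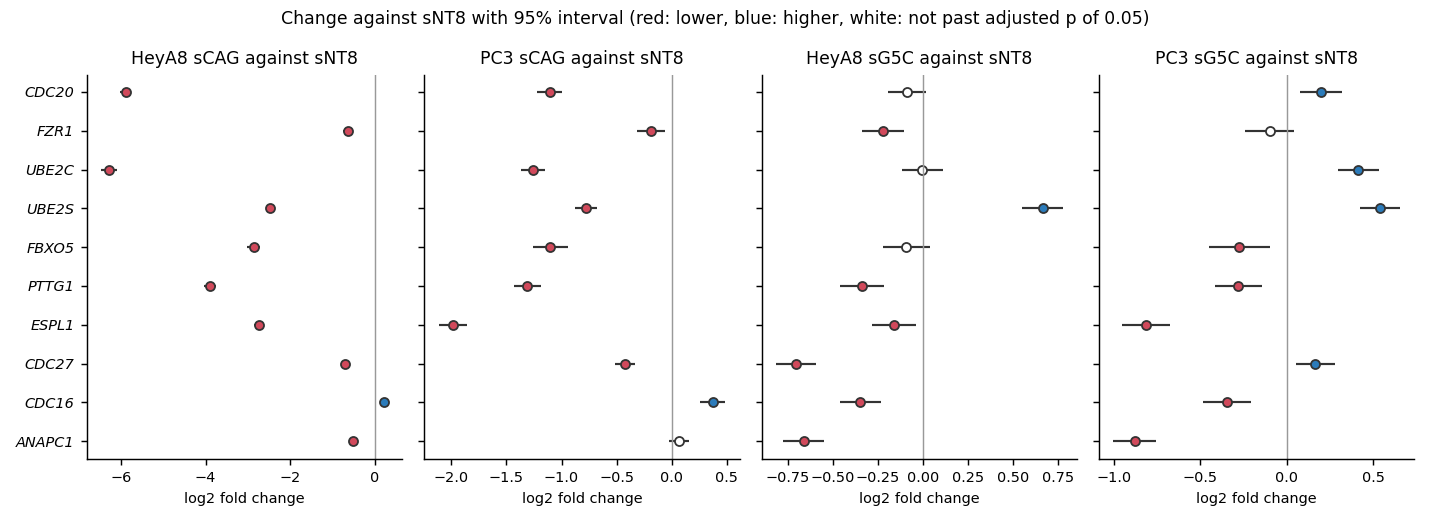
Log2 fold changes of the 10 genes against sNT8 with 95% intervals (limma), one panel for each short RNA and line, each with its own horizontal scale. With sCAG the regulators and separase lie left of 0 in both lines, to -6.28 for UBE2C in HeyA8 and -1.99 for ESPL1 in PC3, whereas with sG5C no value is below -0.88.

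The size of the response to sCAG differed between the lines for 9 of the 10 genes, with the PC3 value above the HeyA8 value in each. Of the 27105 genes tested for this difference, 22.1% were called in that direction and 15.0% in the other (edgeR, adjusted p under 0.05). The log2 difference, PC3 minus HeyA8, was 5.06 ± 0.10 (SE) for UBE2C (edgeR adjusted p = 4.32e-35) and 4.80 ± 0.09 for CDC20. It was 2.60 for PTTG1, 1.79 for FBXO5, 1.71 for UBE2S and 0.76 for ESPL1. For ANAPC1 it was 0.58, for FZR1 0.46 and for CDC27 0.29. The value of UBE2C rests on 40 to 50 reads per library with sCAG in HeyA8. With copies added, the log2 fold changes with sCAG in HeyA8 and PC3 were -5.39 and -1.23 for UBE2C and -5.91 and -1.11 for CDC20. The difference between the lines was not tested with copies added. CDC16, which rose in both lines, gave 0.16 ± 0.07 (SE; edgeR adjusted p = 0.0764), and passed with 0.19 when PC3 sCAG library A was left out.

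With sG5C in HeyA8 CDC27, CDC16 and ANAPC1, the 3 core subunits among the 10 genes, fell, and CDC20, UBE2C and FBXO5 did not pass the test. Of the 10 transcripts 6 were lower, 1 higher and 3 not called, where 27.9% of the 22406 genes tested were lower and 24.5% higher. The sNT8 libraries are the same as those used for sCAG, so the comparisons within a line share them. The median log2 fold change of the 10 was -0.19, beside 0.01 over all genes. Library totals shifted the all-gene median by 0.13 and took the share of higher calls among all called genes from 46.8% to 60.6%. The 5 ovarian markers summed to 509 to 537 CPM with sNT8 and 275 to 312 CPM with sG5C, PAX8 alone to 141 to 159 CPM with sG5C, and the endothelial sum was 62.2 to 63.7 CPM. Their part in the sG5C results was not tested.

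CDC20 had 10292, 10375 and 9640.1 normalised counts with sNT8 and 9425, 9765 and 9333 with sG5C, which overlapped. Its log2 fold change was -0.09 (95% interval -0.19 to 0.02; limma adjusted p = 0.165). FZR1 had 3324, 3453 and 3215 with sNT8 and 2750.3, 2861 and 2961 with sG5C, 1.17-fold lower without overlap (limma adjusted p = 0.00155), a call lost with library totals at -0.088. UBE2C had 4173, 4023 and 3802 with sNT8 and 3944, 4031 and 3997 with sG5C, which overlapped, with an interval of -0.11 to 0.11 (limma adjusted p = 0.978), and it was called higher, at 0.13, with library totals. UBE2S had 4636, 4552 and 4329 with sNT8 and 6753, 7221 and 7449 with sG5C. It rose 1.58-fold (0.66 ± 0.05 on the log2 scale, SE; limma adjusted p = 1.4e-11), every sG5C library lying above every sNT8 library.

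FBXO5 had 1508, 1543 and 1428 normalised counts with sNT8 and 1388, 1366 and 1444 with sG5C, overlapping groups with an interval of -0.22 to 0.04 (limma adjusted p = 0.228). PTTG1 fell from 3817, 3712 and 3546 to 2707, 3019.6 and 3045 without overlap (1.26-fold; limma adjusted p = 1.55e-05). ESPL1 had 3509, 3783 and 3349 with sNT8 and 3313, 3263 and 2952 with sG5C, separated by a small gap. It was called lower at -0.16 (limma adjusted p = 0.0274), but not without sNT8 library B (-0.11), without sG5C library C (-0.11) or with library totals (-0.027).

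CDC27 fell from 9572, 8722 and 8757 to 5426, 5692 and 5469 normalised counts (1.63-fold; -0.70 ± 0.05 on the log2 scale, SE; limma adjusted p = 2.5e-12). ANAPC1 fell from 4817, 4439.9 and 4601 to 2905, 3029 and 2823 (1.58-fold; limma adjusted p = 2.23e-11), and CDC16 from 3511, 3538 and 3564 to 2715, 2839.9 and 2794 (1.27-fold; limma adjusted p = 3.62e-06). The groups of all 3 core subunits were apart. Over the 14 core subunit genes 5 fell and 2 rose (median -0.11), and with library totals 4 fell and 4 rose. CDC23, a subunit related to CDC16 and CDC27, fell 1.41-fold, and ANAPC5 did not pass (log2 fold change 0.06; limma adjusted p = 0.327).

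The substrate genes split, with 10 lower, 9 higher and a median of -0.02 (10 lower and 12 higher with library totals). The replication licensing gene CDC6 rose 2.62-fold and CDC25A 2.61-fold, and the transcription factor gene FOXM1 fell 2.19-fold. Of the 6 inhibitor and checkpoint genes 1 fell, BUB1B (-0.52 on the log2 scale), and 3 rose, among them MAD2L2 (0.47) and MAD2L1BP (0.42), while BUB3 did not pass (-0.09; limma adjusted p = 0.171). Of the 12 cohesin genes 5 fell and 4 rose, with RAD21 at -0.69, CDCA5 at 0.51 and PDS5A at -0.36, and PDS5B did not pass (0.03; limma adjusted p = 0.622). Of the 9 SCF genes 3 fell and 2 rose, CUL1 changing by -0.46, NEDD8 by -0.44 and CCNF by -0.28, while FBXW7 did not pass (0.00; limma adjusted p = 0.976).

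With sG5C in PC3, 5 of the 10 transcripts fell and 4 rose, and FZR1 did not pass. Of the 23829 genes tested 29.2% were lower and 28.5% higher, and the median log2 fold change of the 10 was -0.19, beside -0.01 over all genes. UBE2S, UBE2C, CDC20 and CDC27 rose, and securin, separase, FBXO5, CDC16 and ANAPC1 fell. The 5 prostate markers summed to 248 to 265 CPM with sNT8 and 55.8 to 65.4 CPM with sG5C, with HOXB13 at 39.6 to 47.3 CPM, and the endothelial sum was 66.8 to 77.5 CPM. The part of these markers was not tested.

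CDC20 went from 4085, 4142 and 3709.6 to 4518, 4592 and 4547 normalised counts, 1.15-fold higher without overlap (limma adjusted p = 0.00575), a call lost at 0.15 without sNT8 library C. FZR1 had 1662, 1487 and 1433 with sNT8 and 1463, 1398 and 1405 with sG5C, overlapping, with an interval of -0.24 to 0.04 (limma adjusted p = 0.229), and was called lower at -0.16 with library totals. UBE2C rose from 3625, 3439.9 and 3316 to 4645, 4618 and 4548 (1.33-fold; limma adjusted p = 5.84e-07). UBE2S rose from 7051, 6821 and 6292 to 9955, 9534 and 9791 (1.45-fold; limma adjusted p = 2.8e-09). All sG5C libraries lay above all sNT8 libraries for both enzymes.

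FBXO5 had 979.7, 933 and 962 with sNT8 and 919.5, 751 and 718 with sG5C, where library A lay close to the sNT8 libraries. It was called lower (-0.28; limma adjusted p = 0.00735), but not without sG5C library C (-0.21). PTTG1 fell from 2088, 2095 and 2005 to 1781, 1739.7 and 1575 (1.22-fold; limma adjusted p = 0.00059). ESPL1 fell from 3027, 2621 and 2974 to 1661, 1541 and 1693 (1.76-fold; -0.81 ± 0.07 on the log2 scale, SE; limma adjusted p = 2.59e-11). Groups were apart in all 3 genes.

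ANAPC1 had the largest fall of the 10 with sG5C in PC3, from 5068, 5164 and 5258 to 2904, 2923 and 2598 normalised counts (1.84-fold; -0.88 ± 0.06 on the log2 scale, SE; limma adjusted p = 5e-13). CDC16 fell from 1703, 1617 and 1593 to 1320.0, 1327 and 1223 (1.27-fold; limma adjusted p = 8e-05). CDC27 rose from 8046, 8591 and 8439.8 to 9778, 9474 and 8873 (1.12-fold; limma adjusted p = 0.013), a call lost without sNT8 library A (0.14) or sG5C library B (0.16). The groups did not overlap in any of these core genes. Of the 14 core subunit genes 5 fell and 4 rose (median -0.04), CDC23 falling 1.49-fold and ANAPC5 not passing (log2 fold change -0.09; limma adjusted p = 0.168).

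Of the substrate genes 12 fell and 12 rose around a median of -0.05 (12 and 9 with library totals). FOXM1 fell 4.97-fold, whereas BUB1 changed by 0.95 and SKP2 by -1.003 on the log2 scale, and KIF22 did not pass (-0.05; limma adjusted p = 0.472). Of the 6 inhibitor and checkpoint genes 3 fell and 2 rose, with MAD2L1BP at 0.88, BUB1B at -0.57 and MAD2L2 at 0.48, and BUB3 did not pass (-0.11; limma adjusted p = 0.0907). Of the 12 cohesin genes 8 fell and 2 rose, with RAD21 at -0.71 and CDCA5 at -0.37, and PDS5B did not pass (-0.03; limma adjusted p = 0.741). Of the 9 SCF genes 3 fell and 4 rose, with SKP1 at 0.61 and CCNF at -0.67, and FBXW11 did not pass (-0.09; limma adjusted p = 0.185).

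**Figure D4:**
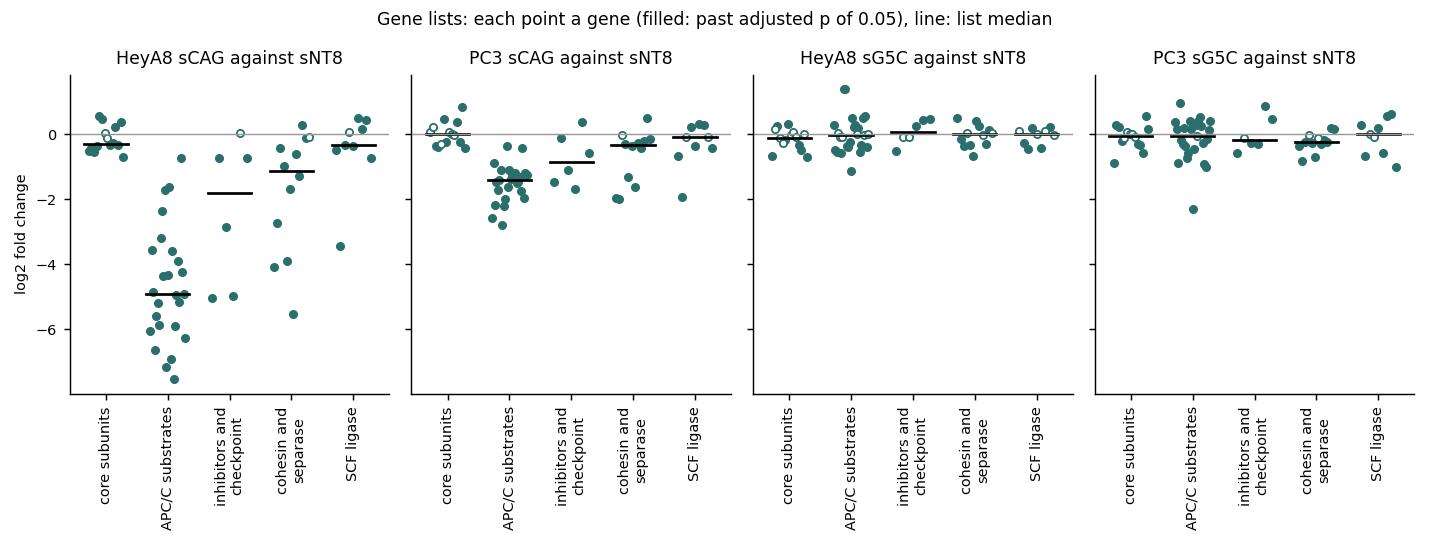
Log2 fold change against sNT8 of every gene of 5 lists (14 core subunits, 25 substrates, 6 inhibitors and checkpoint genes, 12 cohesin and separase genes, 9 SCF genes), filled where past adjusted p of 0.05 in limma, with a line at the median of the list. With sCAG all 25 substrates lie below 0 in both lines, at medians of -4.91 and -1.42, and with sG5C the medians of the lists lie between -0.24 and 0.08.

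The response to sG5C differed between the lines for 5 of the 10 genes, 3 of them higher in PC3 and 2 lower, beside 18.3% of all 27105 genes higher and 14.6% lower. CDC27, which fell in HeyA8 and rose in PC3, had a log2 difference (PC3 minus HeyA8) of 0.89 ± 0.07 (SE; edgeR adjusted p = 7.21e-15). It was 0.43 for UBE2C, 0.30 for CDC20 and -0.64 for ESPL1 (edgeR adjusted p = 1.37e-06, 0.00062 and 3.97e-08). For ANAPC1 it was -0.20 (edgeR adjusted p = 0.0248), a call lost when HeyA8 sNT8 library B, HeyA8 sG5C library B, PC3 sNT8 library C or PC3 sG5C library C was left out (-0.17, -0.18, -0.18 and -0.14). Library totals shifted the all-gene median by -0.21, ended the call of CDC20 at 0.093 and called 5 of the 10 lower. With it, 3212 genes in all were called higher and 6521 lower, in place of 4949 and 3944.

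A direct comparison of sCAG with sG5C within a line gave 7 of the 10 transcripts lower and 2 higher with sCAG in each line. The background was 33.4% of 23238 genes lower and 31.8% higher in HeyA8, and 31.1% of 24618 lower and 31.6% higher in PC3 (edgeR, adjusted p under 0.05). UBE2C was 79.2-fold lower in HeyA8 and 3.18-fold in PC3, CDC20 56.2-fold and 2.46-fold, and UBE2S 8.8-fold and 2.48-fold. The HeyA8 value of UBE2C rests on 40 to 50 reads per library with sCAG. PTTG1, FBXO5 and ESPL1 were lower in both lines as well. With library totals the all-gene median shifted by -0.25 in HeyA8 and -0.12 in PC3, and the share of higher calls in HeyA8 from 48.8% to 33.7%. CDC16 was higher with sCAG by 0.57 ± 0.05 in HeyA8 and 0.72 ± 0.06 in PC3 (log2, SE). ANAPC1 was higher by 0.15 (edgeR adjusted p = 0.0053) in HeyA8, which turned to -0.10 with library totals, and by 0.95 (edgeR adjusted p = 1.45e-16) in PC3. CDC27 did not pass in HeyA8 (-0.00 ± 0.04; edgeR adjusted p = 0.941), and library totals gave -0.25, called lower. FZR1 did not pass in PC3 (-0.09 ± 0.06; edgeR adjusted p = 0.234), and library totals gave -0.21, called lower. The 2 short RNAs are not compared by structure, since none of the sources used here gives their sequences.

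Ratios within a library, which do not depend on how libraries are scaled, were taken for pairs of genes. CDC20 over FZR1, per length, was 8.82, 8.55 and 8.54 in HeyA8 with sNT8, 9.76, 9.72 and 8.97 with sG5C and 0.253, 0.209 and 0.216 with sCAG. In PC3 it was 7, 7.93 and 7.37 with sNT8, 8.79, 9.35 and 9.22 with sG5C and 3.83, 4.24 and 3.76 with sCAG. With sCAG in HeyA8 alone FZR1 exceeded CDC20, and in both lines sCAG lay below and sG5C above sNT8 without overlap.

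UBE2C over UBE2S was 1.95, 1.92 and 1.9 in HeyA8 with sNT8, 1.27, 1.21 and 1.16 with sG5C and 0.149, 0.133 and 0.121 with sCAG. In PC3 it was 1.11, 1.09 and 1.14, 1.01, 1.05 and 1.01 and 0.806, 0.786 and 0.805 in the same order of groups. Both short RNAs lay below sNT8 in both lines.

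Securin over separase, PTTG1 over ESPL1, was 4.8, 4.33 and 4.68 in HeyA8 with sNT8, 3.61, 4.09 and 4.55 with sG5C and 2.17, 1.88 and 2.14 with sCAG. In PC3 it was 3.05, 3.53 and 2.98 with sNT8, 4.74, 4.99 and 4.11 with sG5C and 5.39, 4.78 and 5.07 with sCAG. The sCAG libraries thus lay below the reference in HeyA8 and above it in PC3. Copies of PTTG1 (PTTG2 and PTTG3P) took 3.26 to 5.25% of its reads and theirs in every library. FBXO5 over FZR1 had means of 0.678 with sNT8 and 0.144 with sCAG in HeyA8, and of 0.953 and 0.507 in PC3, without overlap in either line. These ratios were not tested, and their values are given as a description.

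**Figure D5:**
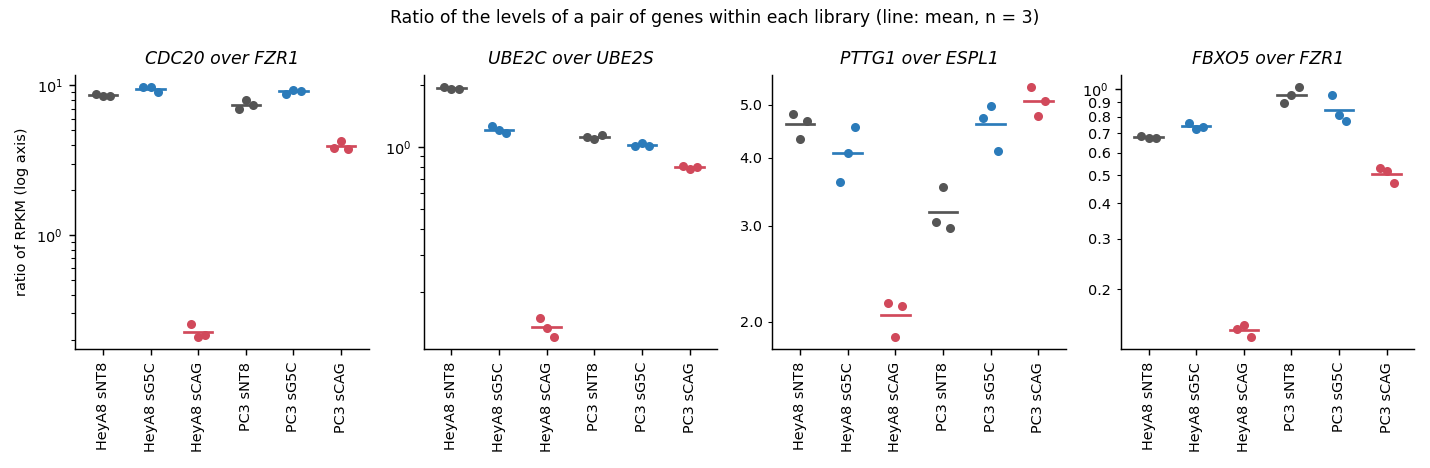
Ratio of RPKM of a pair of genes within each library (log axis, a separate scale in each panel; points are libraries, lines are means, n = 3). The ratio of PTTG1 to ESPL1 with sCAG lies at 1.88 to 2.17 in HeyA8, below sNT8, and at 4.78 to 5.39 in PC3, above sNT8.

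Over all 6 groups, the protein-coding genes whose pattern was nearest to that of CDC20 were TTK, CCNA2, CIT, KIF20A and KIFC1, with a root-mean-square difference of 0.224 to 0.283 (log2 of CPM plus 1, centred group means, 10865 genes). UBE2C ranked 47 and PTTG1 69 by this measure, FBXO5 147, UBE2S 161 and ESPL1 176, whereas CDC27 ranked 1769, FZR1 2495, ANAPC1 4135 and CDC16 8131. Nearest to CDC27 were TMED3, COPG2, PERP, TOX4 and PI4K2B, at 0.0978 to 0.138, and among the 10 genes ANAPC1 came first at rank 3179. CDC16 ranked 7824 in likeness to CDC27, although both encode subunits of the same arm of the complex.

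The order of the 6 groups by RPKM differed from gene to gene. CDC20, FBXO5, PTTG1 and ESPL1 were highest in HeyA8 with sNT8 or sG5C and lowest in HeyA8 with sCAG, where CDC20 stood at 2.06 ± 0.159 and ESPL1 at 1.48 ± 0.0529. For CDC20, HeyA8 with sG5C (138 ± 3.96) and with sNT8 overlapped at the top. UBE2C and UBE2S were highest in PC3 with sG5C (106 ± 1.7 and 104 ± 3.22) and lowest in HeyA8 with sCAG (0.972 ± 0.0828 and 7.24 ± 0.145). CDC16 was highest in HeyA8 with sCAG (25.9 ± 0.289) and lowest in PC3 with sG5C (9.63 ± 0.226), with no neighbouring groups overlapping. By RPKM, which scales by library totals, ANAPC1 was highest in PC3 with sNT8 and next in PC3 with sCAG. On normalised counts these groups lay the other way, at means of 5227 with sNT8 and 5472 with sCAG, a difference that did not pass. The 3 lowest groups of ANAPC1 by RPKM, HeyA8 with sG5C, PC3 with sG5C and HeyA8 with sCAG, overlapped one with the next. Within HeyA8 with sCAG the order of genes was turned over: CDC16 came first and UBE2C last, at 0.972 ± 0.0828 RPKM.

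The name sCAG is that of a triplet whose reverse complement is CTG, so runs of CTG were counted in the transcripts. None of the 10 genes has a run of 6 or more CTG units in any GENCODE 29 transcript, and the longest held 2 or 3 units. Of 19873 protein-coding genes 0.639% have such a run, so few sets of 10 genes would hold one. Targeting of these transcripts by sCAG was not tested.

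In the deposited tables (hg38), CDC20 (ENSG00000117399) spans bases 43358955 to 43363203 of chromosome 1, UBE2C (ENSG00000175063) 45812576 to 45816957 of chromosome 20, PTTG1 (ENSG00000164611) 160421822 to 160428744 of chromosome 5 and ESPL1 (ENSG00000135476) 53268299 to 53293643 of chromosome 12. FZR1 (ENSG00000105325) spans 3506273 to 3538330 and UBE2S (ENSG00000108106) 55399745 to 55407777 of chromosome 19, and FBXO5 (ENSG00000112029) 152970519 to 152983579 of chromosome 6. Of the core subunits, CDC27 (ENSG00000004897) spans 47117703 to 47189422 of chromosome 17, CDC16 (ENSG00000130177) 114234887 to 114272723 of chromosome 13 and ANAPC1 (ENSG00000153107) 111611639 to 111884690 of chromosome 2. Antisense transcripts share 157 exon bases with FBXO5 and 126 with CDC27.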

How the data were processed

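Total RNA of 18 libraries was made into TruSeq TotalRNA libraries, per the labels' protocols. TopHat, Bowtie2, HTSeq, DESeq2 and hg38 are named in the submitters' processing notes, with no version and no strand setting. The 4 deposited tables hold, for 58395 genes, the authors' normalised signal (read counts divided by size factors within each table), with the authors' log2 fold changes and p-values for each short RNA against sNT8. Per library, 100 percent of the deposited values were whole multiples of a step within a tolerance of 1e-06, so reads per gene were recovered. The sNT8 reads of a line are the same in both of its tables. Totals ran from 31232377 to 41384838 reads, and their counting error is part of the spread between libraries.

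Each short RNA was compared with sNT8 within its table by limma 3.58.1 (trend, robust) on log2 of the normalised count plus 1, in R 4.3.3, after the expression filter of edgeR 4.0.16 with a count minimum of 10. P-values were adjusted across all tested genes (Benjamini-Hochberg), and calls needed an adjusted p under 0.05. Because the deposited values are normalised, limma stood in for a count test, and edgeR on the recovered reads, an alternative, called 13064, 11945, 11609 and 13772 genes (HeyA8 sCAG, HeyA8 sG5C, PC3 sCAG, PC3 sG5C) where limma called 13027, 11742, 11667 and 13755. Comparisons of sCAG with sG5C and between lines used edgeR's quasi-likelihood F test with TMM scaling on the recovered reads. Of the calls of the 10 genes in the authors' deposited table, 40 of 40 matched those of limma, with log2 fold changes within 0.0258. RPKM used merged exons of GENCODE 29 and library totals. The fits were also run on counts simulated from HeyA8 with sG5C and sNT8. That run held far fewer changed genes than the data, and smaller changes than those with sCAG. It therefore does not show how the fits perform on the data described here.

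The 10 genes and all lists were chosen with earlier results of these data known. From each list the text names, in each comparison with sNT8, up to 3 genes with the smallest p and the most abundant gene that did not pass. Reads of near-identical copies and of overlapping genes are uncertain. Alternatives were pseudocounts of 0.1 and 10, no filter, a filter at a value of 50 in 3 libraries, TMM scaling, library totals, edgeR, DESeq2 1.42.0 and its size factors, a replicate block, leaving out each library and, chosen after seeing the data, adding the counts of copies. Python 3.11.15 was used for the descriptions.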

Additional observations from a re-analysis of the deposited data

Results flagged for a closer look

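The response to sCAG differed between the lines by edgeR's test of the difference itself (log2, PC3 minus HeyA8) for 9 of the 10 genes: by 5.06 for UBE2C, 4.80 for CDC20, 2.60 for PTTG1, 1.79 for FBXO5, 1.71 for UBE2S, 0.76 for ESPL1, 0.58 for ANAPC1, 0.46 for FZR1 and 0.29 for CDC27. For UBE2C this value rests on 40 to 50 reads per library with sCAG in HeyA8. The response to sG5C differed by 0.89 for CDC27, 0.43 for UBE2C, 0.30 for CDC20, -0.64 for ESPL1 and -0.20 for ANAPC1. The ratio of PTTG1 to ESPL1 per length moved in opposite directions with sCAG, every library of HeyA8 lying below its reference and every library of PC3 above, at means of 2.06 and 5.08, and that difference between the lines was not tested.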

How the results depend on the processing

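Of 1310 values of the 10 genes under the alternatives, 1278 kept their side of the threshold and, where called, their direction. Values that changed sign without a call in either fit count among these. Another 18 lost their call, 9 gained one and 5 reversed with a call in at least 1 of the fits. The reversals all came with library totals: UBE2C with sG5C in HeyA8 (0.13), ANAPC1 with sCAG in PC3 (-0.11), ANAPC1 in the direct comparison in HeyA8 (-0.10), CDC16 in the difference between lines with sG5C (-0.19) and CDC27 between the reference cells (-0.082). With library totals the count of the 10 genes called higher was 2 with sG5C in HeyA8 and 1 in the direct comparison in HeyA8, and that of genes called lower in the line difference with sG5C was 5 (1 with DESeq2 size factors). Between the reference cells library totals gave 2 lower and 5 higher. Leaving out each library gave 1 to 3 lower in the line difference with sG5C and 1 to 2 lower between the reference cells. The cause of these shifts was not tested. The replicate block left all counts of the 10 genes as they were, with 9 lower and 1 higher for sCAG in HeyA8, and changed no call of the 10 genes. Same-lettered libraries correlated at -0.03 to 0.13, and in 21 of 24 checks a library correlated best with its own letter, a hint from the data only. Each sNT8 library enters these checks once for each short RNA, so the 24 are not separate libraries. UBE2C with sCAG in HeyA8 rests on 40 to 50 reads per library.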
